A study of Homo sapiens with 24 samples.

Results

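A771726, the active metabolite of the immunosuppressant leflunomide, blocks DHODH, the mitochondrial enzyme that makes orotate on the route to new pyrimidine nucleotides. A375, an established human malignant melanoma line grown in serum-containing medium, was exposed for 24 h to A771726 at 25 µM or to its solvent DMSO. The comparison below sets the 3 libraries of A771726 at 24 h against the 3 libraries of DMSO at 24 h, which is 6 of the 24 libraries of the series. The other 18 libraries hold nucleotides alone, A771726 with nucleotides, and all 4 conditions at 48 h. Libraries were made from total RNA depleted of ribosomal RNA. Whether replicates come from separate cultures is not stated in the labels. The p-values therefore reflect spread among libraries that may be technical repeats.

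Cells make UTP and CTP from orotate or by salvage of uridine, and spend them on RNA, on DNA precursors and on the activated sugars used to build glycans and lipids. Ribosome production is a main user of RNA precursors in a dividing cell. Lack of pyrimidines is known to slow RNA polymerases and replication forks and to activate p53. The p53 targets and the histone genes head the response in these libraries, and the account below turns to the other pathways and gene families.

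Levels are the authors' FPKM, which are fragments scaled to transcript length and to the mapped fragments of the library. Read depth is unknown. The sum of FPKM was lower under A771726, at 459325, 582736 and 545372 in its 3 libraries, against 740088, 729588 and 769510 in the DMSO libraries (exact permutation test, two-sided, p = 0.1, the smallest that 3 against 3 allows). Small nucleolar and Cajal body RNAs held 106738, 164877 and 125521 FPKM of these sums under A771726, against 232183, 256945 and 249637 FPKM in DMSO. Ribosomal protein genes held 37049, 69573 and 62619 FPKM, against 99551, 91689 and 94504 FPKM. MicroRNA genes held 60869, 8843 and 27415 FPKM under A771726 and 11510, 17274 and 22624 FPKM in DMSO, and these groups overlap. Replicate 1 of A771726 stood furthest from its group, with correlations of 0.910 and 0.920 across genes with the other 2, which had 0.953 with each other. The DMSO libraries had 0.953 to 0.960. In bulk RNA, fewer cells of a kind and less RNA per cell cannot be told apart.

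**Figure D1:**
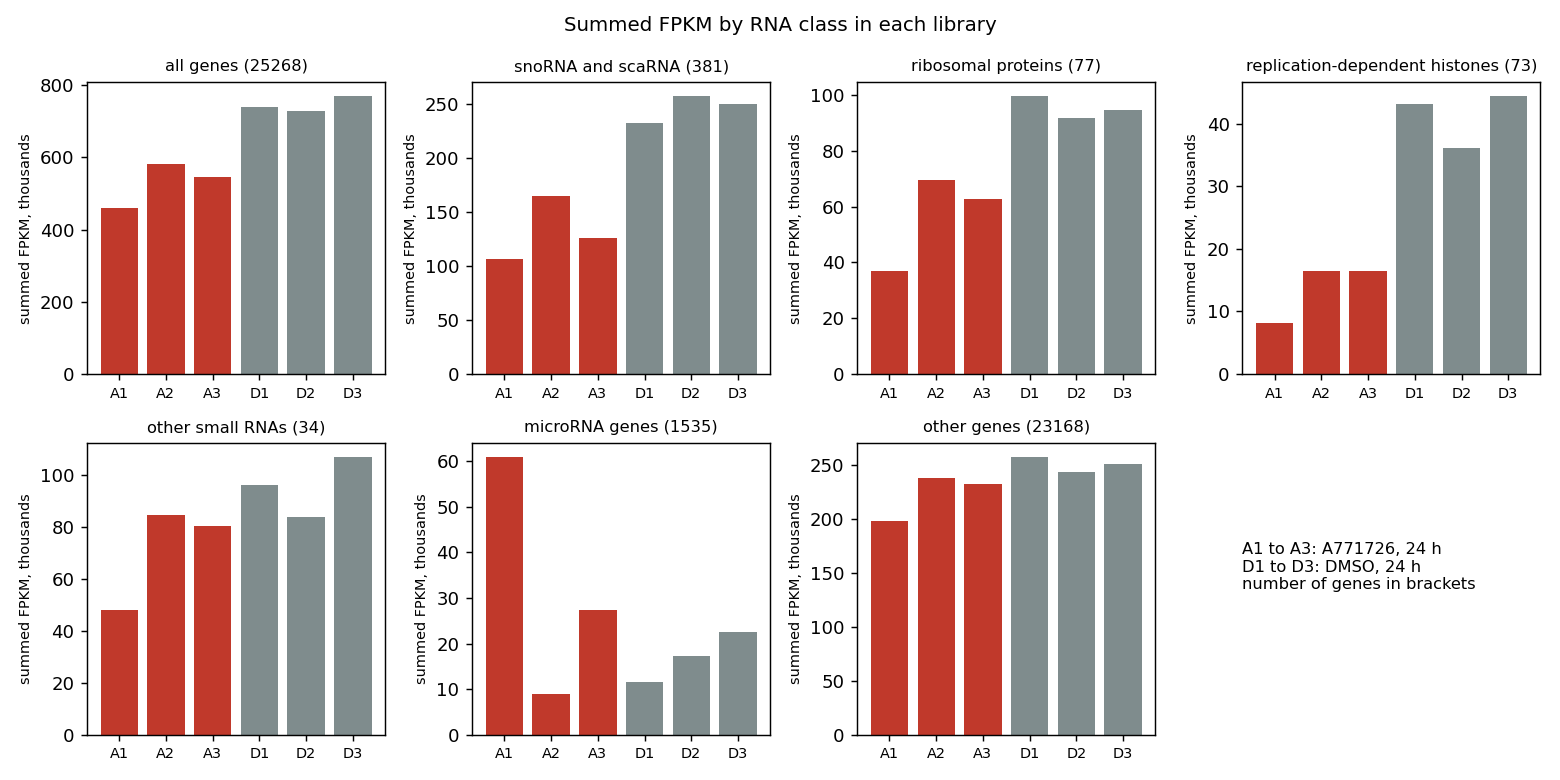
Summed FPKM (axes in units of 1000 FPKM, from 0) by RNA class in each of the 6 libraries, A771726 in red and DMSO in grey, with the number of genes per class in brackets. The A771726 libraries lie below all DMSO libraries for small nucleolar RNAs, ribosomal proteins and histones, while microRNA genes overlap and reach 60869 FPKM in replicate 1 of A771726.

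In a fit of these 6 libraries on log2(FPKM + 1), 680 of 11570 genes that averaged 1 FPKM or more were higher under A771726 and 385 were lower (limma, adjusted p under 0.05). These are 5.88% and 3.33% of the tested genes, against which each list below is read. In all 1065 called genes the 3 libraries of a group did not overlap with those of the other. Uncalled genes such as CD70 and HIST1H4C do not overlap either. The share of all tested genes without overlap is not given here, so lack of overlap adds nothing to a call. Of the higher genes 137 averaged under 1 FPKM in DMSO, and of the lower genes 10 did so under A771726. Such genes reached the minimum level only through the group where they are high. For those named below, levels or a log2 fold change are given without a test, and they stay in the counts of calls. CXCL3, IL4R, DDX58, C1RL, DSC3, EPHA7, BIK, LINC01021 and GAS6-AS1 are among those given by fold change alone. The change was at least 2-fold on this scale for 232 of the higher and 122 of the lower genes. The list of p53 targets holds 33 of the higher genes and that of replication-dependent histones 48 of the lower ones. The median log2 fold change of all tested genes was 0.03. TPM scaling, which sets each column to the same sum, moved that median to 0.48. It left 4057 genes higher and 146 lower, so that 3.47% of the called genes were lower, against 36.2% of those called as deposited. Median-of-ratios scaling gave 55.7% of its called genes lower, and a minimum mean of 5 FPKM gave 51%. Removal of each library's trend on transcript length and GC content, an alternative chosen after seeing the data, gave 56.2% of called genes lower. List medians are therefore given relative to the median of all genes.

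How many genes pass depends on single libraries. Without replicate 1 of A771726, 1173 genes were higher and 676 lower, and without its replicate 3 the counts were 227 and 109. Without replicate 1 of DMSO they were 114 and 32, without its replicate 2 they were 214 and 98, and without its replicate 3 they were 168 and 61. No gene called with all 6 libraries changed sign when 1 was left out. Where a range in brackets follows a count of list members, it spans the counts over the 6 fits that leave out 1 library each. A count without a range comes from the fit of all 6 libraries alone and may also depend on single libraries. For every list with such a range and at least 3 calls in its direction, the low end came without replicate 1 of DMSO, in some lists also without another library.

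**Figure D2:**
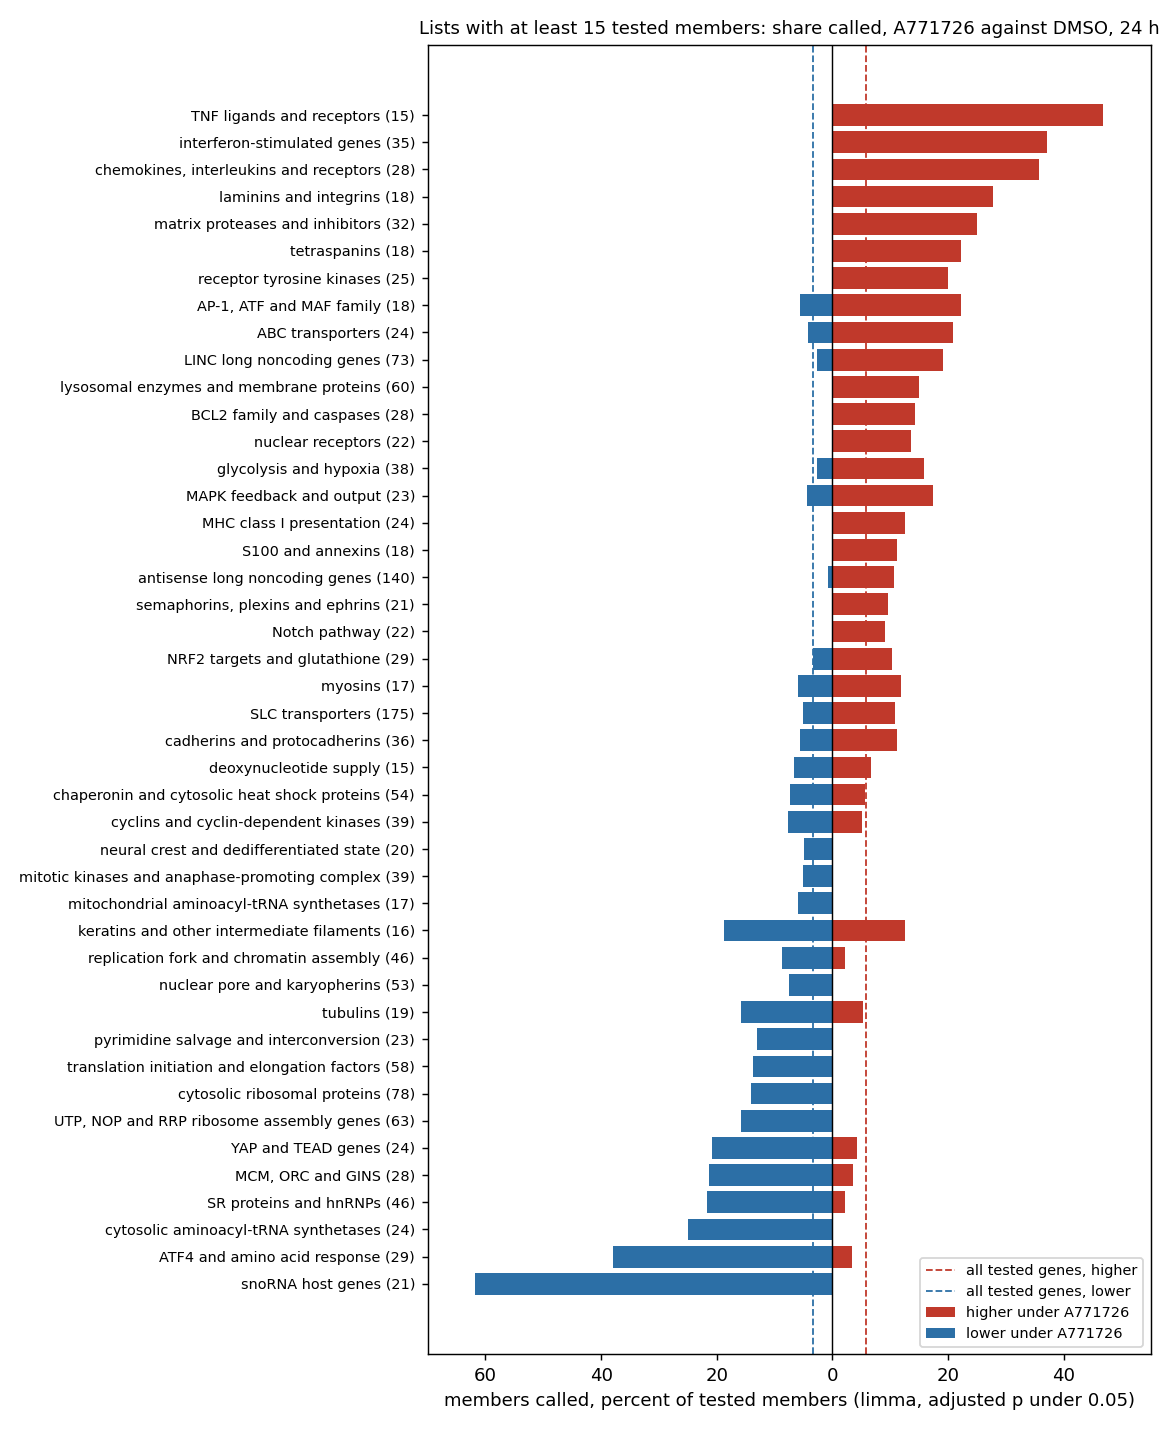
Share of tested members called higher (red, to the right) and lower (blue, to the left) under A771726 at 24 h, in percent, for the described lists with at least 15 tested members (number in brackets). Dashed lines mark the shares over all tested genes, 5.88% higher and 3.33% lower. TNF ligands and receptors have the longest red bar and snoRNA host genes the longest blue one.

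Outside the p53 and histone lists, and leaving out genes listed at 0 in a whole group, the largest rise among called genes at 5 FPKM or more was that of PVRL4, a nectin cell adhesion molecule. It had 6.18, 7.95 and 7.95 FPKM under A771726 (replicates 1, 2 and 3, as in all such values), against 0.0464, 0.108 and 0.0718 FPKM in DMSO (log2 fold change 2.95). ARNT2, a partner of bHLH-PAS transcription factors, had 35.2, 23.6 and 27.3 FPKM under A771726 and 4.17, 4.09 and 4.65 FPKM in DMSO (2.47 ± 0.16 SE, limma, adjusted p = 0.000686). TXNIP, the thioredoxin-interacting protein that limits glucose uptake, had 22.5, 31.0 and 24.4 FPKM under A771726, against 4.31, 4.01 and 3.08 FPKM in DMSO (2.48 ± 0.17 SE, limma, adjusted p = 0.000727). No A771726 library overlapped a DMSO library for these genes, which was a condition for the 15 largest rises. SAT1, which acetylates polyamines for export and breakdown, had 38.3, 63.5 and 46.8 FPKM, against 10.1, 9.89 and 9.0 FPKM in DMSO. ACTA2, smooth muscle actin, had 9.17, 9.46 and 8.90 FPKM, against 0.944, 0.798 and 1.07 FPKM. The cholesterol transfer protein gene GRAMD1B (log2 fold change 2.28), the membrane protein gene SHISA2 (2.16), the mitochondrial carrier gene SLC25A45 (2.02), HLA-DOA (2.2), FAM107B (2.12), LINC01021 (2.45) and the ribosomal protein pseudogene RPL13AP20 (2.60) are also among the 15 largest rises. Reads of a pseudogene such as RPL13AP20 cannot be told apart with certainty from those of its parent gene. The p53 list holds 48 tested genes and may not be complete. Whether the rises outside it depend on p53 was not tested. The phospholipase gene PLCG2 had 566, 1165 and 1075 FPKM under A771726 and is listed at 0 in each DMSO library, and no fold is given for it. It had 1175, 991 and 1141 FPKM under A771726 with nucleotides at 24 h, and 0 in each library of nucleotides alone at 24 h and of DMSO at 48 h. Whether these values stem from the quantification was not tested.

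Among the 15 largest falls, 8 were in the list of snoRNA host genes used here, described below. Whether genes outside that list also host snoRNAs was not examined. LINC01029, a long noncoding RNA, had 5.35, 5.63 and 5.44 FPKM under A771726, against 38.7, 39.2 and 33.1 FPKM in DMSO (-2.55 ± 0.12 SE, limma, adjusted p = 0.000216). The ribosomal protein paralog RPL22L1 had 8.68, 17.7 and 12.7 FPKM under A771726 and 57.8, 67.6 and 55.2 FPKM in DMSO (-2.17 ± 0.24 SE, limma, adjusted p = 0.00424). HSPA8, the constitutive HSP70 chaperone, had 181, 252 and 256 FPKM under A771726, against 804, 741 and 746 FPKM in DMSO (-1.75 ± 0.16 SE, limma, adjusted p = 0.00219). CPA4, a secreted carboxypeptidase, had 5.37, 4.99 and 5.43 FPKM, against 17.3, 16.2 and 17.1 FPKM in DMSO. In each case all 3 A771726 libraries lay below all 3 DMSO libraries, which was a condition for the 15 largest falls.

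Of the 3 enzymes that make UMP anew, 1 fell (0 to 1) and none rose, while TPM scaling gave 0 higher and 0 lower. DHODH, the drug's target, fell to 4.49, 5.64 and 5.69 FPKM under A771726, against 8.67, 8.51 and 8.40 FPKM in DMSO (-0.61 ± 0.12 SE, limma, adjusted p = 0.0295). CAD, which carries the first steps of the route, had 27.9, 9.90 and 15.2 FPKM under A771726 and 9.11, 9.70 and 12.4 FPKM in DMSO, groups that overlap (0.60 ± 0.34 SE, limma, adjusted p = 0.289). UMPS, which turns orotate into UMP, had 9.67, 13.1 and 13.1 FPKM under A771726 and 14.0, 13.9 and 14.4 FPKM in DMSO (-0.23 ± 0.14 SE, limma, adjusted p = 0.333). Of 23 tested genes of pyrimidine salvage and interconversion, 3 fell (0 to 4) and none rose, while TPM scaling gave 6 higher and 0 lower. UCK2, which phosphorylates uridine and cytidine, fell by 0.66 on the log2 scale, the surface 5′-nucleotidase NT5E by 0.60 and the uridine phosphorylase UPP1 by 0.55. The most abundant members, NME2, NME1 and CMPK1, which move phosphates between nucleotides, were not called (log2 fold changes -0.51, -0.29 and -0.09). Among 15 genes of deoxynucleotide supply, SAMHD1, a dNTP hydrolase, rose by 0.58 and DCTPP1, a dCTP pyrophosphatase, fell by 0.75 on the log2 scale. Ribonucleotide reductase subunit RRM2 (64.8, 46.9 and 43.6 FPKM under A771726, against 76.2, 92.3 and 83.4 FPKM in DMSO, limma, adjusted p = 0.0537) and thymidine kinase TK1 (log2 fold change -0.40) were not called. Of 33 tested genes that make UDP-sugars, CMP-sialate and CDP-lipids, 1 rose and 1 fell, and of 21 nucleotide-sugar transporters and 27 enzymes of hyaluronan, heparan and chondroitin synthesis, 1 rose in each and 1 of the second list fell.

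Apart from the histones, snoRNA host genes had the highest share of lower members of all lists. They are transcribed into spliced RNAs whose introns are trimmed into small nucleolar RNAs, the guides that modify ribosomal RNA. Of 21 tested hosts, 13 fell (4 to 18) and none rose, which is 61.9% against the 3.33% of all genes. The list median lay at -1.12 relative to all genes, and at -1.13 to -1.02 under the 3 other scalings, which called 11 (TPM), 14 (median-of-ratios) and 12 (quantile) hosts lower. SNHG12 had 4.66, 6.23 and 7.14 FPKM under A771726, against 32.1, 29.2 and 31.4 FPKM in DMSO (-2.2 ± 0.16 SE, limma, adjusted p = 0.000857). DANCR had 14.1, 27.9 and 26.6 FPKM, against 85.9, 75.5 and 84.2 FPKM in DMSO (-1.85 ± 0.25 SE, limma, adjusted p = 0.00844). SNHG5 had 40.8, 52.1 and 41.7 FPKM under A771726 and 167, 165 and 154 FPKM in DMSO (-1.84 ± 0.13 SE, limma, adjusted p = 0.000918). These 3 genes had every A771726 library below every DMSO library, as did the 10 others called. GAS5, a growth arrest-associated host RNA, had 65.8, 129 and 114 FPKM under A771726, against 313, 309 and 290.5 FPKM in DMSO (-1.61 ± 0.25 SE, limma, adjusted p = 0.0122). ZFAS1 had 24.6, 53.5 and 48.4 FPKM, against 153, 121 and 138 FPKM in DMSO, and SNHG1 had 15.3, 36.5 and 31.3 FPKM, against 92.9, 94.9 and 83.4 FPKM. In DANCR, SNHG1, GAS5 and ZFAS1, replicate 1 of A771726 was the lowest library. The log2 fold changes of the remaining called hosts ran from -1.51 for SNHG7 and -1.50 for SNHG3 over -1.23, -1.08 and -1.01 for SNHG16, SNHG15 and SNHG4 to -0.73 for SNHG11 and -0.61 for SNHG10. SNHG8 (log2 fold change -1.13), SNHG6 (-0.75) and SNHG9 (-1.08), the most abundant hosts not called, also lay below DMSO in every A771726 library. SNORD110 and SNORD116-15, which are small nucleolar RNAs, are listed at 0 in all A771726 libraries, with 1853, 6249 and 2027 FPKM for SNORD110 and 327, 463 and 458 FPKM for SNORD116-15 in DMSO. Both are also at 0 in single libraries without the drug. For SNORD110 these are replicate 1 of nucleotides alone at 24 h and replicate 1 of DMSO at 48 h. For SNORD116-15 it is replicate 2 of nucleotides alone at 24 h. Their zeros are therefore not read as loss under A771726.

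Genes of the translation machinery, several snoRNA hosts among them, are known to begin their transcripts with a run of pyrimidines, the 5′ terminal oligopyrimidine motif through which mTOR controls their translation. The stretches from 40 bases before to 20 bases after the annotated start are shown for 3 host genes and 2 ribosomal protein genes that fell, from RefSeq on GRCh38.p14, each on the gene's own strand, with the longest run of C and T near the start in capitals. They show how the runs differ between host genes.
SNHG12, chr1:28581854-28581913, minus strand: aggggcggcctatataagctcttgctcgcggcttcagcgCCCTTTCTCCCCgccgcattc
SNHG7, chr9:136728165-136728224, minus strand: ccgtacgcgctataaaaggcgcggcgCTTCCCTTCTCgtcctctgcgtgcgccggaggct
SNHG5, chr6:85678714-85678773, minus strand: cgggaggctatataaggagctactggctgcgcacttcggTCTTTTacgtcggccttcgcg
RPS12, chr6:132814529-132814588, plus strand: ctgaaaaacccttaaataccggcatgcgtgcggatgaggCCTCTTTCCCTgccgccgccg
RPL24, chr3:101686699-101686758, minus strand: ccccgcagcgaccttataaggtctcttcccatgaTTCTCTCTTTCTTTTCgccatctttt
A run of at least 8 bases of C and T that reaches within 5 bases of the start was found in 5 of 18 host genes with a RefSeq window, in 48 of 63 cytosolic ribosomal protein genes and in 11 of 47 translation factors, against 993 of 8535 tested genes with a window (11.6%). Within the hosts it was held by 4 of the 12 called genes and 1 of the 6 others. Within the ribosomal protein genes it was held by 6 of the 8 called genes with a window and 42 of the 55 others. A match is a description of the letters only.

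For the cytosolic ribosomal proteins the direction of the median depends on the scaling. Of 78 tested genes, 11 fell (0 to 40) and none rose, and the list median lay -0.79 from that of all genes but at 0.04 under quantile normalization. The lower calls were 4 under TPM scaling, 20 under median-of-ratios scaling and 0 under quantile normalization. RPL23, a large-subunit protein that also binds MDM2, had 315, 830.1 and 716 FPKM under A771726, against 1812, 1688 and 1662 FPKM in DMSO (-1.59 ± 0.35 SE, limma, adjusted p = 0.0368). RPS12, a small-subunit protein, had 400.5, 856 and 795 FPKM, against 1615, 1516 and 1589 FPKM in DMSO (-1.28 ± 0.28 SE, limma, adjusted p = 0.0389). RPL5, which joins the 5S RNA in the particle that restrains MDM2, had 224, 371 and 290.4 FPKM under A771726 and 543, 584 and 495 FPKM in DMSO (-0.90 ± 0.20 SE, limma, adjusted p = 0.0372). Replicate 1 of A771726 was the lowest in each. RPL24, RPLP0, RPL10A, RPL10, RPS13, RPL6, RPS26 and RPL23A fell by 0.67 to 1.03 on the log2 scale, of which RPL23A turned to 0.10 under quantile normalization. The most abundant member, RPL41, had 827, 2585 and 2369 FPKM under A771726 and 5451, 4903 and 5172 FPKM in DMSO without passing (-1.59 ± 0.41 SE, limma, adjusted p = 0.0608). Many of these genes have processed pseudogenes that can share their reads. Of 77 mitochondrial ribosomal protein genes none was called.

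Of 63 tested UTP, NOP and RRP genes and their partners, which assemble ribosomes in the nucleolus, 10 fell (0 to 18) and none rose, with a relative median of -0.45 that kept its sign under all 3 other scalings. The lower calls were 1 under TPM scaling, with 1 higher, 16 under median-of-ratios scaling and 8 under quantile normalization. NOP56 and NOP58 are core proteins of the box C/D particles that methylate ribosomal RNA. NOP56 had 47.2, 74.6 and 70.3 FPKM under A771726, against 135, 117 and 122 FPKM in DMSO (-0.98 ± 0.19 SE, limma, adjusted p = 0.0263). NOP58 fell by 0.87 on the log2 scale, PES1, of the large-subunit maturation complex, by 0.90, and the small-subunit processome scaffold UTP20 by 0.88. DDX21, the nucleolar RNA helicase named in the study's title, fell to 50.5, 61.1 and 49.1 FPKM under A771726, against 95.4, 106 and 82.9 FPKM in DMSO (-0.81 ± 0.15 SE, limma, adjusted p = 0.0211). NIP7, NOP16, UTP14A, RRP1 and PNO1 made up the rest. NOP10, IMP3 and GNL3, the most abundant members without a call, had log2 fold changes of -0.39, -0.25 and -0.81. Of 37 subunits of RNA polymerases I and III 1 fell, and of 12 subunits of RNA polymerase II and 32 of Mediator none was called. HEXIM1, the P-TEFb inhibitor that DDX21 is known to act with, had 16.8, 10.4 and 11.2 FPKM under A771726 and 9.42, 10.2 and 11.4 FPKM in DMSO, groups that overlap (limma, adjusted p = 0.414). The P-TEFb kinase CDK9 had 17.1, 10.8 and 12.7 FPKM under A771726 and 11.7, 9.82 and 13.2 FPKM in DMSO, also with overlap (limma, adjusted p = 0.528).

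Of 46 splicing regulators of the SR and hnRNP families, 10 fell (0 to 18), 1 rose and 35 were not called, with a relative median of -0.42. The calls were 5 higher and 2 lower under TPM scaling, 1 and 13 under median-of-ratios scaling, and 1 and 3 under quantile normalization. SRSF2, an SR protein that helps recruit the splicing machinery to exons, had 61.2, 77.9 and 80.9 FPKM under A771726, against 178, 165 and 164 FPKM in DMSO (-1.20 ± 0.14 SE, limma, adjusted p = 0.0054). HNRNPF, which binds G-rich stretches near splice sites, had 42.6, 72.0 and 66.4 FPKM, against 127, 124 and 125 FPKM in DMSO (-1.08 ± 0.20 SE, limma, adjusted p = 0.0235). SYNCRIP, HNRNPDL and SRSF1 fell by 1.00, 0.88 and 0.76 on the log2 scale, and HNRNPK, HNRNPH1, HNRNPA1, HNRNPU and HNRNPR by 0.59 to 0.70, of which HNRNPA1 turned to 0.02 under quantile normalization. SRSF8, an SR paralog, went the other way, with 20.7, 21.9 and 18.7 FPKM under A771726 and 8.70, 8.65 and 8.70 FPKM in DMSO (1.14 ± 0.11 SE, limma, adjusted p = 0.0028). HNRNPC, HNRNPA2B1 and SRSF3 did not pass (log2 fold changes -0.73, -0.07 and -0.62). Of 63 core spliceosome genes 1 fell and of 50 exosome and decay genes 1 rose. Among 53 nuclear pore and karyopherin genes 4 fell (0 to 5): RAN, the GTPase that drives transport (log2 fold change -1.11), the importin KPNB1 (-0.78), the tRNA exporter XPOT (-0.72) and the pore protein SEH1L (-0.60).

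Of 58 initiation and elongation factors of translation, 8 fell (0 to 13) and none rose. TPM scaling gave 7 higher and 2 lower, median-of-ratios scaling 0 and 10, and quantile normalization 0 and 1. EIF4A1, the helicase that unwinds mRNA leaders, had 326, 499 and 503 FPKM under A771726, against 952, 859 and 928 FPKM in DMSO (-1.07 ± 0.19 SE, limma, adjusted p = 0.0191), and its paralog EIF4A2 fell by 1.22 on the log2 scale. EIF3E, EIF5A, EEF1A1, EIF2S3, EIF3M and EIF3A fell by 0.65 to 0.93, of which EEF1A1 turned to 0.14 under quantile normalization. Of 24 cytosolic aminoacyl-tRNA synthetases, the enzymes that charge tRNA, 6 fell (1 to 7) and none rose, with a relative median of -0.49. The lower calls were 1 under TPM scaling, with 1 higher, 7 under median-of-ratios scaling and 3 under quantile normalization. YARS, the tyrosine enzyme, had 21.8, 22.9 and 23.3 FPKM under A771726, against 50.5, 45.6 and 50.9 FPKM in DMSO (-1.08 ± 0.11 SE, limma, adjusted p = 0.00333). SARS, MARS, NARS, CARS and GARS, for serine, methionine, asparagine, cysteine and glycine, fell by 0.68 to 0.85 on the log2 scale. KARS, RARS and TARS did not pass (log2 fold changes -0.41, -0.56 and -0.57). Of 17 mitochondrial synthetases only RARS2 was called, with a log2 fold change of -0.72.

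The amino acid response, in which the transcription factor ATF4 turns on amino acid synthesis and import, had the next highest share of lower calls after histones and snoRNA hosts among lists of at least 15 tested members. The lower calls were 6 under TPM scaling, 13 under median-of-ratios scaling and 10 under quantile normalization. Of 29 tested genes, 11 fell (1 to 14), which is 37.9% against 3.33%, and 1 rose. Among the 11, 1 averaged under 1 FPKM under A771726. ATF4 had 68.4, 108 and 99.4 FPKM under A771726, against 224, 199 and 210.0 FPKM in DMSO (-1.22 ± 0.19 SE, limma, adjusted p = 0.0121). SLC7A11, the cystine importer, had 3.28, 4.28 and 3.04 FPKM, against 12.2, 16.6 and 11.4 FPKM in DMSO (-1.66 ± 0.18 SE, limma, adjusted p = 0.00388). ASNS, asparagine synthetase, had 18.6, 12.1 and 11.4 FPKM under A771726 and 31.0, 35.2 and 30.5 FPKM in DMSO (-1.17 ± 0.19 SE, limma, adjusted p = 0.0151). These 3 genes had no overlap between groups, and in ASNS replicate 1 of A771726 was nearest to DMSO. MTHFD2 of mitochondrial folate metabolism fell by 1.31, the proline enzyme PYCR1 by 1.14, the glutamine importer SLC1A5 by 1.09, the glutathione-degrading CHAC1 by 0.91 and the transsulfuration enzyme CBS by 0.89 on the log2 scale, followed by SLC3A2, CEBPG and STC2. ATF3, a stress-induced relative of ATF4, rose to 8.35, 11.4 and 8.92 FPKM under A771726, against 1.73, 1.58 and 1.42 FPKM in DMSO (2.02 ± 0.14 SE, limma, adjusted p = 0.000843). DDIT4 (log2 fold change -0.87), SHMT2 (-0.67) and SLC38A2 (-0.14) did not pass. None of 34 genes of endoplasmic reticulum chaperones and the unfolded protein response was called. The amino acid response element TTGCATCA was found, on either strand, in the 250 bases before the start of 1 of 25 list genes with a RefSeq window, CHAC1, and in 32 of 8535 tested genes (0.375%).

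Among 54 cytosolic chaperones, 4 fell (1 to 10) and 3 rose. HSPA8, described above, HSPA1A, its stress-induced relative, HSPA14 and the chaperonin subunit CCT6A fell, by 0.69 to 1.75 on the log2 scale. HSPB8, HSPA2 and HSPA4L rose by 0.55 to 0.67. HSPA1A has a near-identical copy that can share its reads. HSP90AA1 was not called (log2 fold change 0.29). None of 42 proteasome subunits, 80 subunits of the respiratory chain and ATP synthase, 25 genes of the tricarboxylic acid cycle or 20 folate enzymes was called by limma with all 6 libraries. Their relative medians were -0.32, -0.26, -0.08 and -0.18, and those of the respiratory chain and the tricarboxylic acid cycle turned to 0.11 and 0.03 under quantile normalization.

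**Figure D3:**
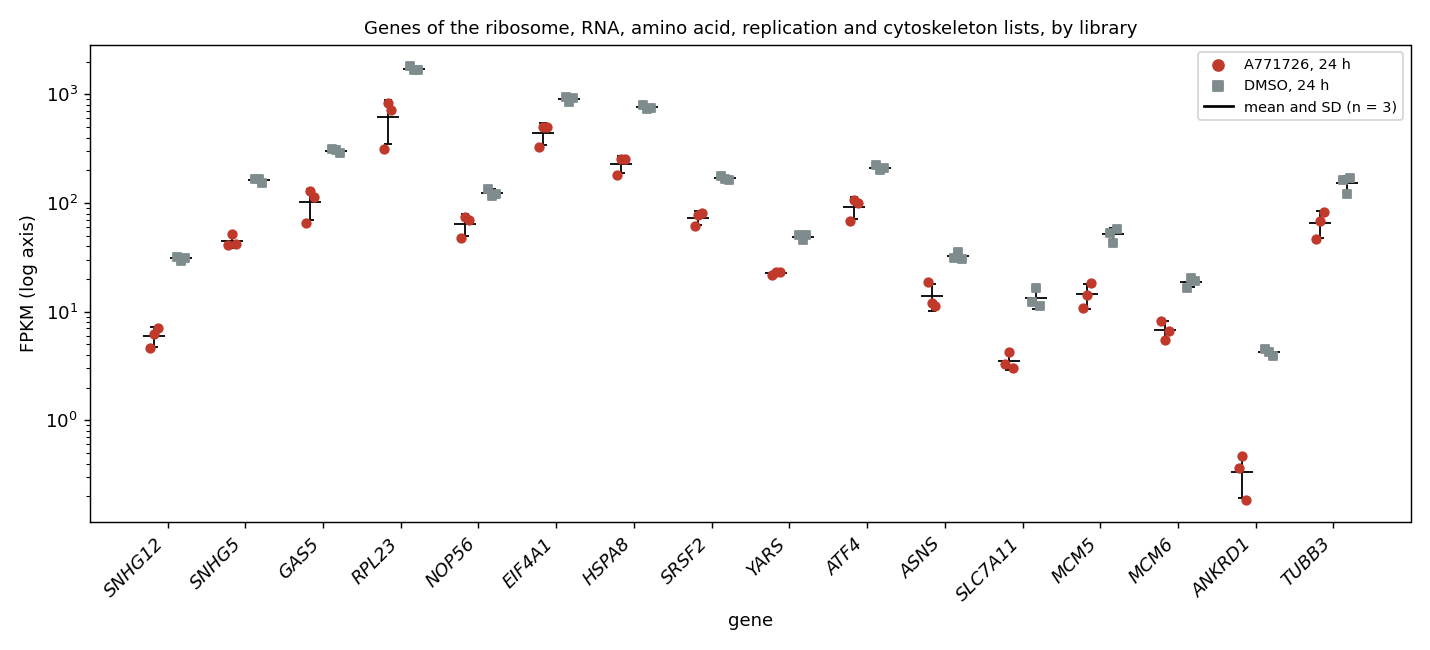
FPKM (log axis) of 16 lower genes in the 3 A771726 libraries (red circles, left of each gene) and the 3 DMSO libraries (grey squares, right), with mean and SD (n = 3). The groups do not overlap for any gene shown, as in all called genes, and for RPL23 replicate 1 of A771726 is the lowest library.

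The MCM helicase, which unwinds DNA at replication origins, had 5 of its 6 subunits called lower. Of 28 MCM, ORC and GINS genes, 6 fell (2 to 9) and 1 rose. MCM5 had 10.7, 14.3 and 18.2 FPKM under A771726, against 53.1, 43.1 and 58.0 FPKM in DMSO (-1.78 ± 0.21 SE, limma, adjusted p = 0.00525). MCM6 had 8.29, 5.45 and 6.63 FPKM, against 16.6, 20.2 and 19.0 FPKM in DMSO (-1.34 ± 0.17 SE, limma, adjusted p = 0.00611). MCM7, MCM2 and MCM3, further subunits of the hexamer, fell by 1.04, 1.02 and 0.92 on the log2 scale, and GINS2 by 1.05. MCM4, the last subunit, was below DMSO in every library without passing (log2 fold change -0.42, limma, adjusted p = 0.0596). GINS4 rose by 0.47. Of 46 genes of the fork and chromatin assembly, UHRF1, which carries DNA methylation through replication, the histone chaperone NASP, the fork protein TIPIN and the histone mRNA binding protein SLBP fell, by 0.66 to 1.09, and the polymerase delta subunit POLD4 rose by 0.82. PCNA, the sliding clamp, was not called (log2 fold change -0.14). Of 8 E2F genes, E2F7, a repressor of the family, rose by 1.02 and E2F2, an activator, fell by 0.95. Of 39 cyclins and kinases, cyclins CCNE2 and CCND1 and the inhibitor CDKN1C fell (log2 fold changes -1.01, -0.68 and -1.06), while CDK2 and CDKN1A rose (0.62 and 2.07). CDC20 and CDC25A fell among 39 mitotic kinase and anaphase-promoting complex genes, by 0.78 and 0.62. Of 43 centromere and kinetochore genes 1 was called and of 30 kinesins none.

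Among the lists of at least 15 tested members other than p53 targets, the tumour necrosis factor family had the highest share called higher. Of 15 tested ligands and receptors, 7 rose (4 to 10) and none fell, which is 46.7% against 5.88% of all genes. Among them FAS and TNFRSF10B, both death receptors, are p53 targets by the list used here, and without p53 list members the count was 5 of 12. Of the 7 higher members, 2 averaged under 1 FPKM in DMSO and so reached the minimum level only through A771726. TNFRSF14, the receptor for LIGHT and BTLA, had 4.63, 4.71 and 5.51 FPKM under A771726, against 0.959, 0.770 and 1.03 FPKM in DMSO (log2 fold change 1.63). TNFSF9, the 4-1BB ligand, had 28.1, 26.9 and 30.2 FPKM, against 10.4, 7.81 and 10.8 FPKM in DMSO (1.47 ± 0.15 SE, limma, adjusted p = 0.00297). FAS had 8.96, 10.7 and 9.19 FPKM under A771726 and 2.05, 2.54 and 1.96 FPKM in DMSO (1.74 ± 0.13 SE, limma, adjusted p = 0.000937). In these 3 genes each A771726 library was above each DMSO library. TNFRSF1B, TNFRSF25 and TNFRSF19 rose by 0.52 to 0.68 on the log2 scale. CD70, the ligand of CD27, had 67.8, 137 and 165 FPKM under A771726 and 48.5, 35.8 and 55 FPKM in DMSO and just missed the threshold (limma, adjusted p = 0.0585).

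Cytokines followed. Of 28 tested chemokines, interleukins and receptors, 10 rose (2 to 16) and none fell. Among the 10, 3 averaged under 1 FPKM in DMSO. IL11, a cytokine of the IL-6 family, had 10.1, 11.6 and 12.3 FPKM under A771726, against 2.77, 2.11 and 2.66 FPKM in DMSO (1.82 ± 0.13 SE, limma, adjusted p = 0.000925). IL1A, an alarm cytokine released by damaged cells, had 1.91, 4.45 and 3.28 FPKM, against 0.531, 0.815 and 0.556 FPKM in DMSO (log2 fold change 1.32). CXCL8, the neutrophil attractant interleukin 8, had 9.01, 14.4 and 9.52 FPKM under A771726 and 4.29, 5.45 and 4.09 FPKM in DMSO (1.07 ± 0.20 SE, limma, adjusted p = 0.0219). CXCL3 rose by 1.01 and the receptors IL4R, IL11RA, IL10RB, IL7R and IL6R by 0.63 to 1.15 on the log2 scale, with IL24 at 0.89. The decoy receptor IL13RA2, the most abundant member, was not called (197, 305 and 224 FPKM under A771726 and 219, 243 and 192 FPKM in DMSO).

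Interferon-stimulated genes encode sensors and effectors against viral RNA and are switched on through a transcription complex that includes STAT2 and IRF9. Of 35 tested, 13 rose (0 to 19) and none fell, which is 37.1% against 5.88%, with a relative median of 0.45. Among the 13, 2 averaged under 1 FPKM in DMSO. The higher calls were 28 under TPM scaling, 9 under median-of-ratios scaling and 6 under quantile normalization. OAS1, which makes the 2′-5′ oligoadenylate that activates RNase L, had 8.46, 13.9 and 14.2 FPKM under A771726, against 3.40, 3.93 and 3.97 FPKM in DMSO (1.44 ± 0.20 SE, limma, adjusted p = 0.00911). GBP2, an interferon-induced GTPase, had 5.37, 9.57 and 7.90 FPKM, against 2.49, 2.64 and 2.50 FPKM in DMSO (1.25 ± 0.19 SE, limma, adjusted p = 0.0123). IFIT1, which binds foreign RNA caps, had 2.28, 3.36 and 2.81 FPKM under A771726 and 1.12, 1.15 and 0.913 FPKM in DMSO (0.88 ± 0.14 SE, limma, adjusted p = 0.0138). No A771726 library of these 3 genes overlapped a DMSO library. Of the transcription complex, IRF9 rose by 0.81 and STAT2 by 0.57 on the log2 scale. The RNA sensor DDX58 rose by 0.61, and IFI35, HERC5, ISG20, IFI6, PARP9, OAS2 and PARP14 by 0.46 to 1.10. IFITM3 and ADAR, the most abundant members, were not called, and MX2 lay below DMSO in every A771726 library without passing (8.28, 12.2 and 12.1 FPKM, against 16.1, 15.1 and 15.4 FPKM in DMSO, limma, adjusted p = 0.107).

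The sites through which that complex acts are built of a pair of GAAA blocks with any 2 bases between them. This pattern was searched on both strands of the 250 bases before each RefSeq start, and 13 of 25 list genes with a window held it, against 190 of 8535 tested genes (2.23%). It was in 5 of the 10 called members with a window and in 8 of the 15 others. The stretches around the match nearest the start are shown for the 5 called genes that hold it, on the gene's strand, with the match in capitals, from RefSeq on GRCh38.p14.
IFIT1, chr10:89392505-89392544, plus strand: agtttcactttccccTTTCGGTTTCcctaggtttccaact
HERC5, chr4:88457030-88457069, plus strand: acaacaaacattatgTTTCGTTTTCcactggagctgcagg
IFI6, chr1:27672261-27672300, minus strand: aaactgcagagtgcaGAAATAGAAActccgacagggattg
ISG20, chr15:88638932-88638971, plus strand: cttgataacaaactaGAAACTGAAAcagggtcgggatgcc
PARP14, chr3:122680795-122680834, plus strand: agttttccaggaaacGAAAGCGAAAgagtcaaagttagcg
In HERC5 and IFIT1 the match reads as its reverse complement, and in the other 3 in the direction of transcription.

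Antigen presentation held fewer calls. Of 24 tested genes, among them some of class II, 3 rose (0 to 11) and none fell, with a relative median of 0.46. TAP1, a subunit of the peptide transporter, had 13.7, 19.1 and 21.0 FPKM under A771726, against 10.6, 9.27 and 10.5 FPKM in DMSO (0.75 ± 0.17 SE, limma, adjusted p = 0.0435), and the peptide trimmer ERAP1 and the class II chaperone HLA-DMA rose by 0.50 and 0.66 on the log2 scale. B2M, the light chain of class I, and HLA-DRA were not called (log2 fold changes 0.13 and 0.11), and CD74 was above DMSO in every library without passing (limma, adjusted p = 0.069). HLA genes are highly alike, so their reads may be split between them. Of 8 tested complement genes and regulators, 5 rose (1 to 6). Among the 5, C1RL averaged under 1 FPKM in DMSO. CD55, which breaks up complement convertases on the cell's own surface, had 49.1, 55.9 and 43.6 FPKM under A771726, against 13.5, 16.9 and 11.5 FPKM in DMSO (1.77 ± 0.17 SE, limma, adjusted p = 0.00267). The protease C1R had 2.93, 3.23 and 3.57 FPKM, against 0.961, 1.22 and 1.26 FPKM in DMSO (0.98 ± 0.12 SE, limma, adjusted p = 0.00624), and C1RL and the chaperone clusterin, CLU, rose by 0.82 and 0.82. The remaining call, ITM2B (0.70), stood in that list but is no complement gene. CD59 and CD46, other surface regulators, did not pass.

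Markers of other cell types were read beside these immune genes. Of 15 leukocyte markers, 13 were below 1 FPKM on average and at most at 0.188 FPKM in any library, with AIF1 among those at 0 in all 6. CD68 and LYZ, which are also in the lysosome list, were the other 2. The summed level of the 15 markers was 24.5 to 37.5 FPKM under A771726 and 7.65 to 8.74 FPKM in DMSO. Of 12 keratinocyte markers, IVL, KRT1, LOR and TP63 were at 0 in all 6 libraries. KRT14 had 5.26 to 7.35 FPKM, KRT10 5.19 to 9.07 FPKM and FLG 1.87 to 8.55 FPKM over the 6. DSC3 had 1.45 to 1.89 FPKM under A771726 and 0.621 to 0.676 FPKM in DMSO. SFN had 1.42 to 2.04 FPKM under A771726 and 0.155 to 0.261 FPKM in DMSO. The sum of the 12 was 21.0 to 23.6 FPKM under A771726 and 16.7 to 19.3 FPKM in DMSO. Of 13 fibroblast and endothelial markers 10 were below 1 FPKM on average. The sum of all 13 was 7.32 to 7.84 FPKM under A771726 and 2.85 to 2.99 FPKM in DMSO. LUM, PDGFRB and KDR averaged 1 FPKM or more over the 6 libraries, and did so only through A771726. In DMSO LUM had 0.832 to 1.05 FPKM, PDGFRB 0.497 to 0.821 FPKM and KDR 0.672 to 0.838 FPKM. The part of other cells in the results was not tested. SOX10, MIA, MCAM and PRAME of the melanoma markers were expressed, while PMEL, MLANA, TYR and DCT of the pigment machinery were below 1 FPKM on average.

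Lysosomal genes were called in 1 direction. Of 60 tested enzymes and membrane proteins, 9 rose (1 to 17) and none fell, which is 15% against 5.88%. CD68, a lysosomal membrane glycoprotein, had 9.08, 9.06 and 9.86 FPKM under A771726, against 2.25, 1.76 and 1.91 FPKM in DMSO (1.80 ± 0.12 SE, limma, adjusted p = 0.000673). LYZ, lysozyme, had 14.8, 28.1 and 21.0 FPKM, against 6.30, 5.68 and 5.65 FPKM in DMSO (1.65 ± 0.22 SE, limma, adjusted p = 0.00802). CTSK, the collagen-cleaving cathepsin K, had 7.04, 11.3 and 9.86 FPKM under A771726 and 3.34, 3.45 and 2.82 FPKM in DMSO (1.29 ± 0.18 SE, limma, adjusted p = 0.00879). The glycosidases FUCA1, GAA and MAN2B1 rose by 1.06, 1.05 and 0.74 on the log2 scale, and GM2A, LGMN and PSAP by 0.52 to 0.69. CD63 and CTSC, the most abundant members, were not called (log2 fold changes -0.35 and -0.09). The motif of the lysosomal regulator TFEB, CACGTG with GT before it and AC after it, was found in 4 of 41 list genes with a window and in 63 of 8535 tested genes (0.738%), with GAA as the single called gene among the 4. The 2 leukocyte markers CD68 and LYZ are thus also the top 2 lysosomal rises. Of 19 V-ATPase and 36 autophagy genes 1 and 2 rose, and of 41 ubiquitin-specific proteases none was called.

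Cell adhesion and matrix lists held calls mostly in the higher direction. Of 18 laminins and integrins, 5 rose (2 to 6) and none fell. Among the 5, 1 averaged under 1 FPKM in DMSO. ITGA2, the collagen-binding integrin chain, had 20.7, 22.6 and 19.5 FPKM under A771726, against 5.34, 6.80 and 5.20 FPKM in DMSO (1.70 ± 0.14 SE, limma, adjusted p = 0.00136). ITGA1, the other main collagen receptor chain, had 25.8, 26.4 and 23.1 FPKM, against 7.78, 9.65 and 7.18 FPKM in DMSO (1.51 ± 0.14 SE, limma, adjusted p = 0.00219). ITGA10, ITGB8 and LAMA4 rose by 0.76 to 0.97 on the log2 scale, and ITGB1 and ITGA6, the most abundant chains, were not called. Of 32 proteases and inhibitors, 8 rose (2 to 10), of which 2 averaged under 1 FPKM in DMSO. The thrombin inhibitor SERPIND1 had 5.32, 6.28 and 5.53 FPKM under A771726, against 0.752, 0.700 and 0.762 FPKM in DMSO (log2 fold change 1.95). TIMP1, an inhibitor of matrix metalloproteinases, rose by 0.98, the protease nexin SERPINE2 by 1.04, tissue plasminogen activator PLAT by 0.92 and the metalloproteinase ADAM19 by 1.23. Of 18 tetraspanins 4 rose (0 to 4): TSPAN11, the metastasis suppressor CD82, TSPAN12 and TSPAN31, by 0.88 to 1.56. Among these 4, 1 averaged under 1 FPKM in DMSO. Of 36 cadherins and protocadherins, the desmosomal DSG2 and DSC3, PCDHB8 and PCDHA4 rose, by 0.55 to 0.70, while N-cadherin, CDH2, fell by 0.57 and CDH12 by 0.73. Among the 4 that rose, 2 averaged under 1 FPKM in DMSO. Under quantile normalization 0 cadherins were higher and 3 lower. Protocadherin clusters share exons, so their members are uncertain. Of 13 collagens COL16A1 rose by 1.13 and COL5A2 fell by 0.45, though it turned to 0.04 under TPM scaling.

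The cytoskeleton moved both ways. KRT8, an epithelial keratin, had 24.8, 26.5 and 28.9 FPKM under A771726, against 4.73, 4.60 and 5.51 FPKM in DMSO (2.22 ± 0.12 SE, limma, adjusted p = 0.00044), while its partner KRT18 was not called (log2 fold change -0.39). VIM, the mesenchymal filament vimentin, fell by 0.92, the neural progenitor filament NES by 0.92 and lamin B1, LMNB1, by 0.68 on the log2 scale, and NEFL rose by 0.68. Of 19 tubulins TUBB3, TUBA1C and TUBB fell, by 0.62 to 1.22, with TUBB at 0.02 under quantile normalization, and TUBG2 rose by 0.64. TUBB3 had 46.5, 67.6 and 83.1 FPKM under A771726 and 162, 122 and 171 FPKM in DMSO. Of 17 myosins MYH15 and MYO1E rose by 1.42 and 0.53 and MYL12A fell by 1.40. Of 18 S100 proteins and annexins S100A1 and ANXA4 rose by 1.01 and 0.53.

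The aryl hydrocarbon receptor is a ligand-activated transcription factor that turns on drug-metabolising enzymes, and leflunomide, the parent drug of A771726, is known as a ligand of it. Of 8 tested genes of this list, 3 rose (2 to 4). CYP1A1, its best-known target, had 7.23, 6.21 and 7.79 FPKM under A771726, against 1.57, 1.30 and 1.31 FPKM in DMSO (1.75 ± 0.13 SE, limma, adjusted p = 0.000857). AHR itself had 51.9, 44.9 and 41.1 FPKM, against 19.7, 22 and 18.6 FPKM in DMSO (1.15 ± 0.13 SE, limma, adjusted p = 0.00525), and ARNT2 is described above. Under A771726 with nucleotides at 24 h, CYP1A1 had 1.92, 1.74 and 2.35 FPKM, AHR 20.3, 24.9 and 16.5 FPKM and ARNT2 5.65, 6.86 and 5.31 FPKM. The list median of log2 fold change against DMSO was 0.30 under A771726 and 0.24 with nucleotides added. Action of A771726 as a ligand was not tested. NQO1, SLC7A5 and TIPARP, further targets, had log2 fold changes of -0.20, -0.24 and -0.02 without a call. The antisense transcript CYP1B1-AS1 rose by 1.76. Since the strand setting is not given, reads of CYP1B1-AS1 cannot be told apart from those of CYP1B1. The motif TTGCGTG was in none of the 7 list genes with a window and in 114 of 8535 tested genes (1.34%), which says only that these letters are not in the 250 bases before those starts.

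**Figure D4:**
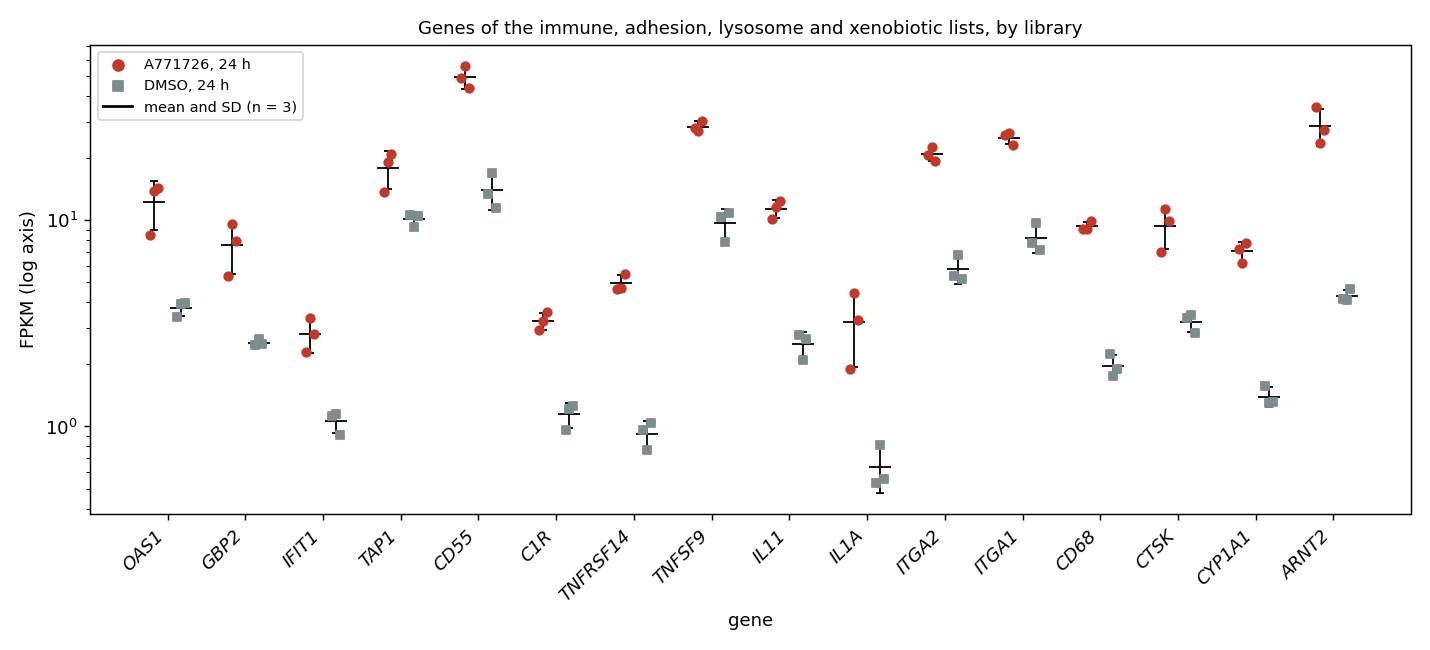
FPKM (log axis) of 16 higher genes in the 3 A771726 libraries (red circles, left of each gene) and the 3 DMSO libraries (grey squares, right), with mean and SD (n = 3). As in all called genes, no A771726 library overlaps a DMSO library, also where levels are a few FPKM, as for IFIT1 and IL1A.

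Transcription factor families held few calls each. Of 18 AP-1, ATF and MAF genes 4 rose (2 to 5) and ATF4 fell. Besides ATF3, FOS had 6.91, 7.75 and 7.42 FPKM under A771726, against 2.68, 2.43 and 2.34 FPKM in DMSO (1.26 ± 0.11 SE, limma, adjusted p = 0.0018), and JUND and MAF rose by 0.99 and 0.91 on the log2 scale, while JUNB and FOSL1 were not called. Of 22 nuclear receptors NR4A1, an immediate early orphan receptor, had 45.3, 19.2 and 26.0 FPKM under A771726, against 7.03, 6.26 and 8.25 FPKM in DMSO (1.85 ± 0.29 SE, limma, adjusted p = 0.0138). The oxysterol receptor NR1H3 rose by 0.69 and RXRG by 0.62. KLF9 and KLF15 rose by 0.61 and 0.51 among 14 KLF and SP genes, SOX15 by 0.91 among 8 SOX genes and MXD1, an antagonist of MYC, by 0.70 among 9 genes of the MYC network. MYC itself had 1.79, 1.89 and 2.07 FPKM under A771726 and 2.56, 2.94 and 2.90 FPKM in DMSO (limma, adjusted p = 0.0827). Among 5 arrestin-domain genes TXNIP was the single call. Of 372 tested ZNF genes 10 rose and 4 fell, shares below those of all genes, and of 17 FOX genes none was called.

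A375 carries an activated BRAF kinase, which drives the MAPK pathway. Of 23 genes of MAPK output and feedback, DUSP1, DUSP4 and DUSP10, phosphatases of MAP kinases, rose by 0.67, 0.71 and 0.77 on the log2 scale and CXCL8 with them (0 to 6), and CCND1 fell. Of 24 YAP and TEAD genes, 5 fell (1 to 6) and AMOT, a YAP inhibitor, rose by 0.66. ANKRD1, a sensitive YAP target, had 0.362, 0.466 and 0.183 FPKM under A771726, against 4.56, 4.30 and 3.94 FPKM in DMSO (log2 fold change -1.98). The factor TEAD4 fell by 1.02, FJX1 by 0.88 and AJUBA by 0.58, with NT5E already given. Of 25 receptor tyrosine kinases, KDR (also one of the endothelial markers above), FGFR4, PTK7, EPHB2 and EPHA7 rose (0 to 6), by 0.54 to 0.96. KDR and EPHA7 averaged under 1 FPKM in DMSO. ERBB3 and AXL, which differ between melanoma states, were not called (log2 fold changes 0.40 and -0.32). The Notch ligand JAG1 and receptor NOTCH2 rose by 0.91 and 0.73 among 22 genes, and the plexins PLXNB2 and PLXNB1 by 1.69 and 0.66 among 21 semaphorins, plexins and ephrins. Of 28 TGF-beta and BMP genes 2 rose and 1 fell, and of 27 Wnt genes none was called. MITF, the pigment cell master regulator, had 10.1, 13.7 and 10.5 FPKM under A771726, against 5.71, 6.57 and 5.25 FPKM in DMSO (0.85 ± 0.15 SE, limma, adjusted p = 0.0203), 1 of 2 calls among 9 pigment cell genes. SOX10 was not called (0.54).

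Transport and energy genes held scattered calls. Of 175 SLC transporters 19 rose (3 to 25) and 9 fell. Among the 19, 4 averaged under 1 FPKM in DMSO, and among the 9, 1 did so under A771726. SLC52A1, a riboflavin importer, had 1.83, 1.79 and 2.61 FPKM under A771726, against 0.0193, 0 and 0.0157 FPKM in DMSO (log2 fold change 1.59). The urea transporter SLC14A1, the cotransporter SLC12A4 and the glucose transporter SLC2A3 rose by 1.34, 1.24 and 0.90 on the log2 scale. Of 24 ABC transporters 5 rose (1 to 6) and ABCF2 fell: ABCB9 rose by 1.25, the bilirubin exporter ABCC2 by 0.72, the cholesterol exporter ABCA1 by 0.66, ABCA10 by 0.67 and the multidrug pump ABCB1 by 0.46. Of 38 genes of glycolysis and hypoxia 6 rose (0 to 8), among them ALDOC, P4HA2 and PFKFB4 by 1.16, 1.00 and 0.71, and ADM fell by 0.87. Of 29 NRF2 targets AKR1C2, AKR1C3 and GSTM3 rose by 0.62 to 1.32 and TXNRD1 fell by 0.74; the AKR1C genes are close paralogs. Of 28 BCL2 family genes and caspases 4 rose (2 to 9), of which BIK (0.54) is outside the p53 list and BBC3, BAX and APAF1 are in it. Of 25 cholesterol and 23 fatty acid genes 1 and 2 rose and 0 and 1 fell.

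Most long noncoding genes were not called. Of 73 tested LINC genes 14 rose (2 to 17) and 2 fell, and of 140 antisense genes 15 rose (2 to 24) and 1 fell. In each of these lists 5 of the higher genes averaged under 1 FPKM in DMSO. Under quantile normalization 5 antisense genes were higher and 4 lower. LINC00239, LINC00622 and LINC01271 rose by 1.35, 1.28 and 1.16 on the log2 scale, and GAS6-AS1 by 1.89. For antisense genes the reads of the partner gene cannot be told apart. Of 5 microRNA host genes MIR100HG and MIR17HG, which carries the miR-17-92 cluster, fell by 1.39 and 0.88. Of 13 replication-independent histone variants H2AFZ fell by 0.72, though it turned to 0.06 under quantile normalization, and H2AFJ rose by 0.73, and HIST1H2BK and HIST1H1C, also in the histone list, fell. HIST1H4C, a core histone gene that was not called, had 418, 1139 and 1066 FPKM under A771726 and 2133, 1891 and 2141 FPKM in DMSO (limma, adjusted p = 0.0674). Of 89 chromatin modifiers 3 rose and 1 fell.

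**Figure D5:**
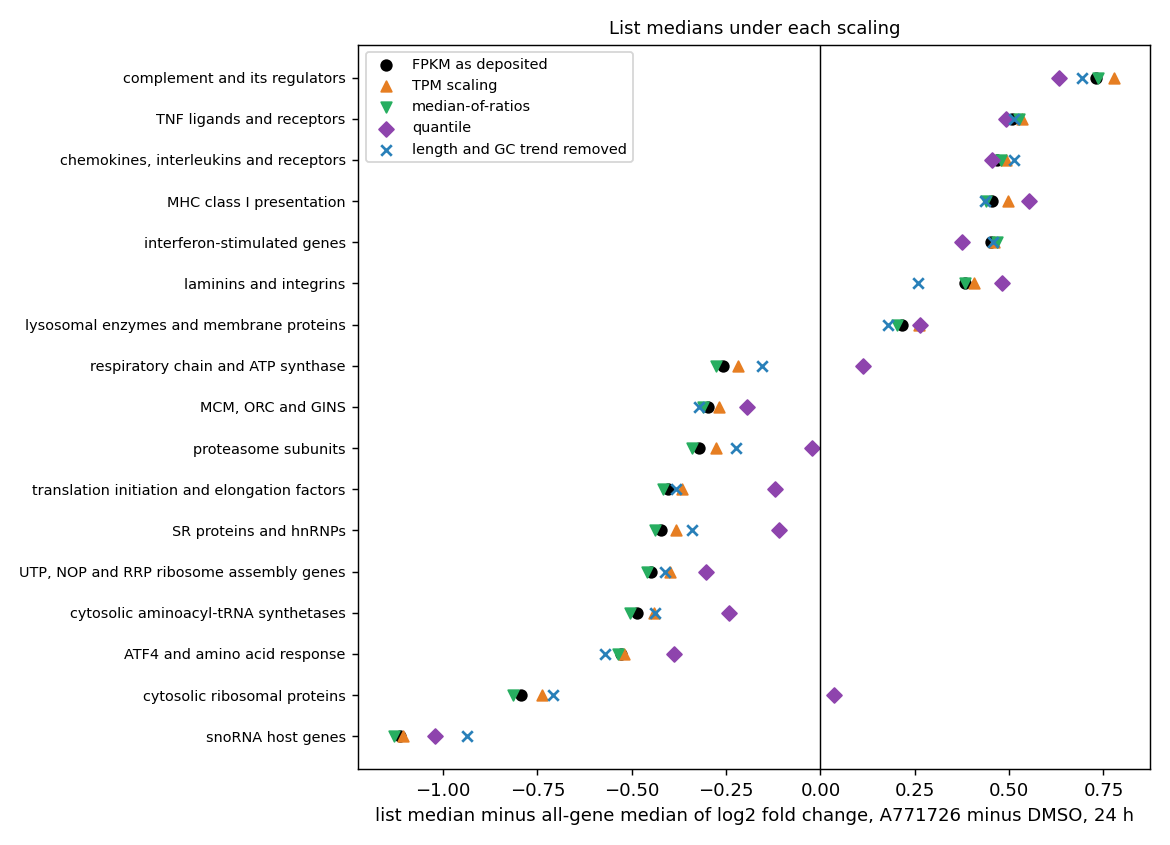
Median log2 fold change (A771726 minus DMSO, 24 h) of 17 lists after subtracting the all-gene median, for FPKM as deposited (black) and 4 other scalings. The 7 upper lists stay to the right of 0 and 8 lower lists to the left under every scaling, while cytosolic ribosomal proteins and the respiratory chain cross to a positive value under quantile normalization.

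In all, 90 pathway and family lists covering 3195 tested genes were counted. In 55 of them, each with at least 5 tested members, the share called in a direction was at least 1.5 times that of all genes, and 14 lists held no call. A single call reaches that share in a short list, as for 1 of 5 arrestin-domain genes, 1 of 8 SOX genes and 1 of 17 mitochondrial synthetases. The number 55 thus follows from a rule for what is described and is no count of enriched lists. Among the lists not given above, 1 of 25 HOX genes rose and 1 fell, 1 of 16 clock genes and 2 of 43 RAB GTPases rose, 2 of 38 TRIM genes rose and 1 fell, 4 of 47 F-box genes rose and 2 fell, 2 of 42 genes of homologous recombination and the Fanconi pathway fell, 1 of 20 genes of the neural crest state fell, and neither metallothionein nor any of 21 cancer-testis genes was called. BHLHE40, a clock gene also induced by hypoxia, was the clock call (log2 fold change 1.40). Relative medians of the 35 lists under that share ran from -0.33 for RNA polymerase II subunits to 0.19 for the TGF-beta and BMP pathway. Shorter transcripts lay lower: the median log2 fold change was -0.08, -0.01, 0.05 and 0.12 in 4 equal groups of genes by transcript length, shortest to longest, with 5.77% higher and 5.11% lower in the shortest group and 5.66% higher and 1.91% lower in the longest. Its part in the list results was not tested, but with that trend removed the relative medians were -0.94 for snoRNA hosts, -0.57 for the amino acid response, 0.46 for interferon-stimulated genes and 0.51 for the TNF family.

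The other groups at 24 h share the DMSO libraries, so their values are set side by side only. The median log2 fold change of snoRNA hosts against DMSO was -1.08 under A771726, -0.23 under A771726 with nucleotides and 0.03 under nucleotides alone. That of the amino acid response was -0.50, -0.10 and -0.02 in the same order, and that of interferon-stimulated genes was 0.48, 0.01 and 0.02. For all tested genes the medians were 0.03, -0.04 and 0.00.

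The 48 h libraries are separate from those of 24 h. In replicate 3 of A771726 at 48 h, 538 of the 680 higher genes (79.1%) were above all 3 DMSO libraries of 48 h, against 21.2% of all tested genes, and 363 of the 385 lower genes (94.3%) were below them, against 58.9%. Without p53 list members it was 507 of 647, and without histones 315 of 337. Replicates 1 and 2 had 38.1% and 30.4% of the higher genes above DMSO, against 11.0% and 22.4% of all genes, and 95.8% and 86.8% of the lower genes below, against 82.5% and 74.3%. Replicate 2 stands apart: it lists ACTA2, ATF3 and GAS5 at 0, and AHR at 2846 FPKM, against 23.4, 27.6 and 19.4 FPKM for AHR in DMSO at 48 h.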

How the data were processed

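Total RNA of A375 cells, depleted of ribosomal RNA, was sequenced paired-end, per the labels' protocols. The dose comes from a treatment note in the labels that goes on to describe ChIP, another assay. The deposited values are FPKM; per the submitters' processing notes the authors used cutadapt, TopHat2 2.0.11 and Cufflinks 2.2.1 on hg19. The sources used here do not give the annotation, the strand setting or any filter. FPKM keep no counts, so the number of reads behind a value and its counting error are unknown and no count model was used.

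The 6 libraries were fitted on log2(FPKM + 1) with limma 3.58.1 in R 4.3.3, for the 11570 of 25268 genes that averaged 1 FPKM or more across them, and p-values were adjusted by the Benjamini-Hochberg method over all of these. The threshold for a call was an adjusted p under 0.05. On this scale the fold changes of low genes are understated. The method was tested on simulated data. Lists are described by counts of calls and medians, with no test. The genes named are the 15 largest changes in each direction among called genes at 5 FPKM or more that do not overlap between groups, outside the p53 and histone lists and short RNAs, up to 6 called and 3 abundant uncalled members of each list, other members of a family described by role, and 9 genes chosen by function. The members and lists were chosen with earlier results of these data known. BHLHE40 is named as a list call.

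Alternatives covered the pseudocount, the minimum level, 3 scalings, the libraries in the fit, the moderation of variances, a replicate block and each library left out. Promoters were matched by symbol to RefSeq on GRCh38.p14 for 8535 of the tested genes, from 250 bases before to 50 after the start. Figures were drawn with matplotlib 3.10.9.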

Additional observations from a re-analysis of the deposited data

How the results depend on the processing

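The counts of 680 higher and 385 lower genes moved with the processing, and the cause was not tested. Without a filter on low levels 1079 genes were higher, and with a minimum mean of 5 FPKM 254 were. TPM scaling gave 4057 higher and 146 lower, quantile normalization 449 higher and 320 lower, and median-of-ratios scaling 489 higher and 614 lower. A fit of the 12 libraries of 24 h gave 1205 and 899, and one of all 24 libraries 85 and 57. With replicate 2 of A771726 at 48 h left out, the fit of the remaining 23 libraries gave 842 and 545. With the trend on transcript length and GC content removed, an alternative chosen after seeing the data, 1210 were higher and 1550 lower. With 1 library left out, the counts ran from 114 to 1173 higher and from 32 to 676 lower. A replicate block gave 288 higher and 112 lower. The deviations of same-numbered libraries from their group means correlated at -0.143, 0.095 and 0.033. With 1 value per replicate number, these correlations cannot decide whether the shared numbers pair the libraries. In BBC3, replicate 2 was lowest in DMSO (1.93 FPKM), nucleotides alone (1.65 FPKM) and A771726 with nucleotides (1.39 FPKM) at 24 h. It was also lowest in DMSO at 48 h (1.64 FPKM), but under A771726 at 24 h replicate 1 was lowest (12.7 FPKM). How many genes share such a pattern was not counted. The other alternatives kept both counts within 1.5 times.

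For the 277 named genes with a call, 3598 of 5191 combinations with an alternative kept direction and call, 1587 lost the call and 6 turned sign. Under TPM scaling, log2 fold changes turned sign for AXL (0.17), CD63 (0.15), CMPK1 (0.41), COL5A2 (0.0361), CTSC (0.41), FOSL1 (0.30), HNRNPA2B1 (0.43), IMP3 (0.24), ITGB1 (0.25), KARS (0.0923), KRT18 (0.11), MCM4 (0.069), NME1 (0.21), NOP10 (0.11), NQO1 (0.30), PCNA (0.36), SLC38A2 (0.36), SLC7A5 (0.26), TIPARP (0.47), TK1 (0.10) and UMPS (0.24). Under quantile normalization, log2 fold changes turned sign for CD63 (0.29), CMPK1 (0.0864), CTSC (0.19), EEF1A1 (0.14), H2AFZ (0.0586), HNRNPA1 (0.0205), HNRNPA2B1 (0.36), ITGB1 (0.0379), NME1 (0.43), NME2 (0.30), NQO1 (0.40), PCNA (0.30), RPL23A (0.10), SLC38A2 (0.15), SLC7A5 (0.0682) and TUBB (0.0202). Under median-of-ratios scaling, log2 fold changes turned sign for HLA-DRA (-0.0088) and ITGA6 (-0.10). Under removal of the length and GC trend, log2 fold changes turned sign for ADAR (-0.0078) and ITGA6 (-0.0579). With 1 library left out, these uncalled genes crossed 0 within the range given: ADAR (-0.0416 to 0.33), B2M (-0.0723 to 0.35), CMPK1 (-0.22 to 0.0629), CTSC (-0.19 to 0.0681), FOSL1 (-0.81 to 0.31), HLA-DRA (-0.0489 to 0.40), HNRNPA2B1 (-0.47 to 0.20), HSP90AA1 (-0.0663 to 0.50), IL13RA2 (-0.0435 to 0.27), IMP3 (-0.39 to 0.0206), ITGA6 (-0.0525 to 0.0665), NME1 (-0.47 to 0.0477), PCNA (-0.31 to 0.0658), SLC7A5 (-0.56 to 0.0506) and TIPARP (-0.0928 to 0.0327).

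Read depth is not known, so genes of low FPKM have an unknown counting error, and 3 libraries a group limit the calls. Relative medians changed sign under at least 1 scaling in 16 of the 90 lists, which are cytosolic ribosomal proteins, the respiratory chain, the tricarboxylic acid cycle, NRF2 targets, the BCL2 family, antisense, UDP-sugar, FOX, ZNF, TRIM, exosome, V-ATPase, ubiquitin-specific protease, metallothionein and cholesterol genes, and endoplasmic reticulum chaperones.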
